A study of Mus musculus with 2 samples.

Results

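The peaks described here are sites of the corepressor subunit Sap130 at gene starts whose centre fell inside the first intron of the labelled gene. They were chosen by their measured bounds from 1 list of 16231 peaks. A peak was taken when it carried a protein-coding transcript (a label present in 12131 peaks), was under 2000 bp wide, and had its centre between exon 1 and exon 2 of that transcript in the direction of the gene. This rule took 4727 peaks at 4621 genes, out of 11696 coding promoter peaks under 2000 bp. Position and width were selected on, so the values of both are given below as a description, with no test.

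The list describes brain of B6 wild-type mice at embryonic stage E13.5. It rests on 1 ChIP library, made with 2 µg of rabbit anti-Sap130 antibody, and on 1 library of input DNA from that tissue, with no genetic change, treatment or other stage to compare. The table used here gives neither peak heights nor read totals, so the depth is unknown, and without a second library no value has a replicate check. The tissue is a whole organ, so a site bound in few cells and a site weakly bound in many cannot be told apart. The running number of a peak is called its place below, with 1 as the first; what the list was ordered by is not stated, and earlier peaks were wider (Spearman's rho between place and width = -0.60 over the 4727 peaks, which share 1 library).

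Sap130 belongs to the Sin3-HDAC complex, in which the scaffold proteins Sin3a and Sin3b hold the histone deacetylases Hdac1 and Hdac2, and which transcription factors bring to promoters. The first intron begins at the splice donor that ends exon 1, the first transcribed stretch of a gene. Where exon 1 is short, the DNA just downstream of the start, which in active promoters holds the first nucleosomes after the nucleosome-depleted region, is already intron. At promoters rich in CpG dinucleotides (CpG islands) transcription factors such as NRF1, the ETS family and YY1 are known to bind close to the start.

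The geometry is plainest at genes whose exon 1 spans only a few bases, because there the intron starts almost at the transcription start. The following stretches, from RefSeq on GRCm38.p6, run 5′ to 3′ on the gene's strand from 40 bases before the start to 50 bases after it, with exon 1 in capitals. They comprise the 3 ribosomal protein genes with a peak centred in intron 1, an exon 1 of at most 30 bases and a start on the same base in both sources, and then the scaffold gene Sin3a and Nme6, a nucleoside diphosphate kinase gene, as examples from elsewhere, chosen after their values were seen.
Rpl14: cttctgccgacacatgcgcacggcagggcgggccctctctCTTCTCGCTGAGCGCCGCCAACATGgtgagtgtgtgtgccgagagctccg
Rps9: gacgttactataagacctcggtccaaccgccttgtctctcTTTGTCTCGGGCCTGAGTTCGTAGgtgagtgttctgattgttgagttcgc
Rps15a: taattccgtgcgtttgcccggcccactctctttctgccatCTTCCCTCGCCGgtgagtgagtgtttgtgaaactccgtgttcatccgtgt
Sin3a: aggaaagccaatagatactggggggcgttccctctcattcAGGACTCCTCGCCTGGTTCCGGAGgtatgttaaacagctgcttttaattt
Nme6: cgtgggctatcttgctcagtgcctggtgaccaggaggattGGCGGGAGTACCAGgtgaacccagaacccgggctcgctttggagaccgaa
The lower-case letters after each capital run open intron 1, and all 5 begin with gt, the first letters of a splice donor. They lie at chr9:120571477-120571566 (plus strand) for Rpl14, chr7:3704001-3704090 (plus) for Rps9, chr7:118116098-118116187 (minus) for Rps15a, chr9:57072000-57072089 (plus) for Sin3a and chr9:109832754-109832843 (plus) for Nme6. In Rpl14, a protein of the large ribosomal subunit, exon 1 has 25 bases and ends with the start codon, and the 1225 bp peak at place 58 was centred 93.5 bp from the start. In Rps15a exon 1 has 12 bases, the minimum among the 4727 peaks, and the 806 bp peak at place 1823 was centred 369 bp from the start. The Sin3a transcript shown has an exon 1 of 24 bases and a first intron of 9031 bp, with a 1541 bp peak at place 3468. In these genes the peak covered the start and a long stretch of intron, and exon 1 was a small part of it. The same letters served to check the transcript models: among 95 peaks with an exon 1 of at most 44 bases and a matching start, intron 1 began with GT in 95.

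Peaks centred in intron 1 were the most frequent of the 6 position classes. They made up 40.4% of coding promoter peaks under 2000 bp (exact 95% interval 39.5 to 41.3, which like all intervals here covers counting error only). The class centred upstream of the start held 2615 peaks (22.4%), the 5′ UTR part of exon 1 held 2204 (18.8%) and its coding part 1655 (14.2%). A further 283 (2.42%) were centred past intron 1, and 212 (1.81%) lay at genes without an intron.

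Most of the intron 1 peaks were not separate from the start but reached across it into the intron. Their centres lay at a median of 318.5 bp downstream of the start (quartiles 220 and 477 bp) and 140 bp past the end of exon 1 (quartiles 65.75 and 258.25 bp). The median peak ran from 41 bp upstream of the start to 732 bp downstream of it. Of the 4727 peaks, 3280 (69.4%, interval 68.1 to 70.7) spanned the start, and with it the whole of exon 1. Of the summed width of these peaks 66.0% was intron 1, 17.9% was exon 1, 12.7% lay upstream and 3.49% lay beyond intron 1. Around the start, the base covered by the largest share of these peaks was 240 bp downstream, under 91.3% of them.

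**Figure D1:**
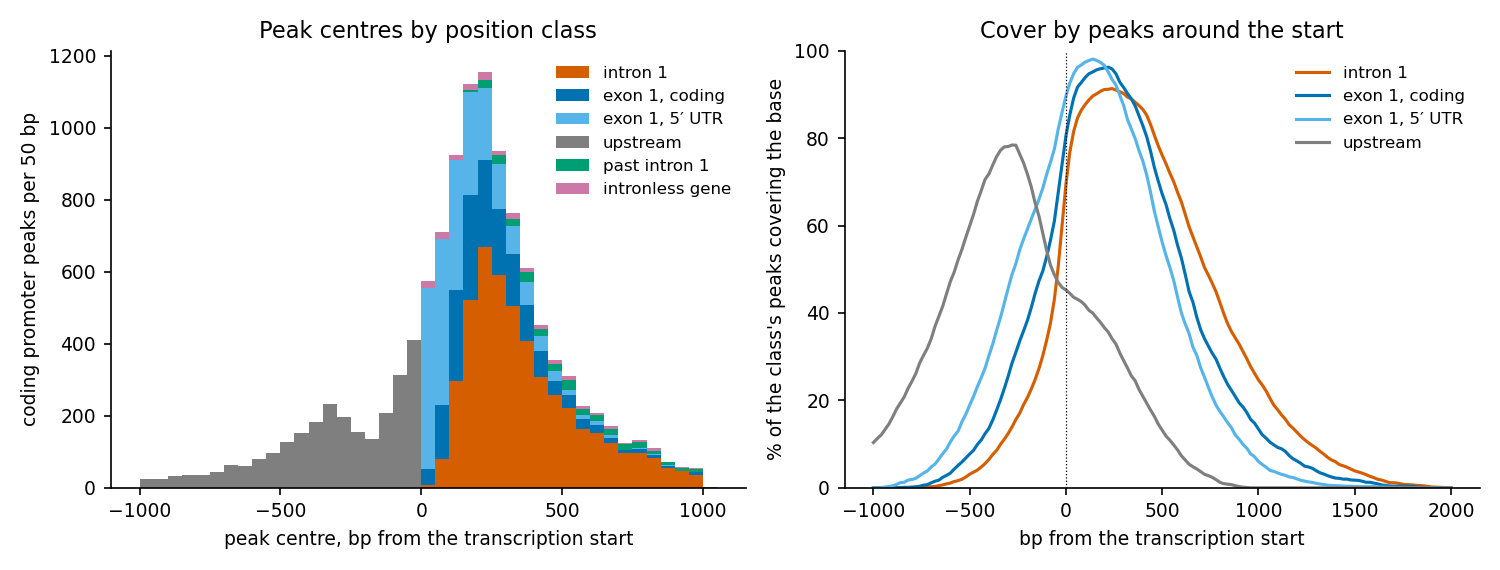
The left panel counts the centres of 11696 coding promoter peaks in steps of 50 bp from the transcription start (x axis, bp), stacked and coloured by position class, and the right panel gives the percentage of each class's peaks that cover a base at that distance. Centres of the intron 1 class (orange) had a median of 318.5 bp, and their cover rose steeply at the start and peaked 240 bp downstream.

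The share centred in intron 1 went with the length of exon 1 and was lower where exon 1 was longer than 150 bp. With an exon 1 of at most 50 bp, 59.5% of coding promoter peaks were centred in intron 1 (270 of 454, interval 54.8 to 64.0). The share stayed at 58.4% for 51 to 100 bp and 58.6% for 101 to 150 bp. It was 50% for 151 to 200 bp, 40.1% for 201 to 300 bp, 25.1% for 301 to 500 bp and 8.06% for longer exons (105 of 1303). Over the same bins the median centre of all coding promoter peaks moved from 145 to 270.5 bp downstream. That of the intron 1 peaks moved from 200.75 to 764.5 bp. Spearman's rho between exon 1 length and centre was 0.57 over the 4727 peaks. Peaks in intron 1 had a median exon 1 of 155 bp, against 269 bp for the other coding promoter peaks, 195 bp for upstream peaks and 327 bp for peaks in coding exon 1. The length of exon 1 enters the rule that chose the peaks, so these relations are a description.

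**Figure D2:**
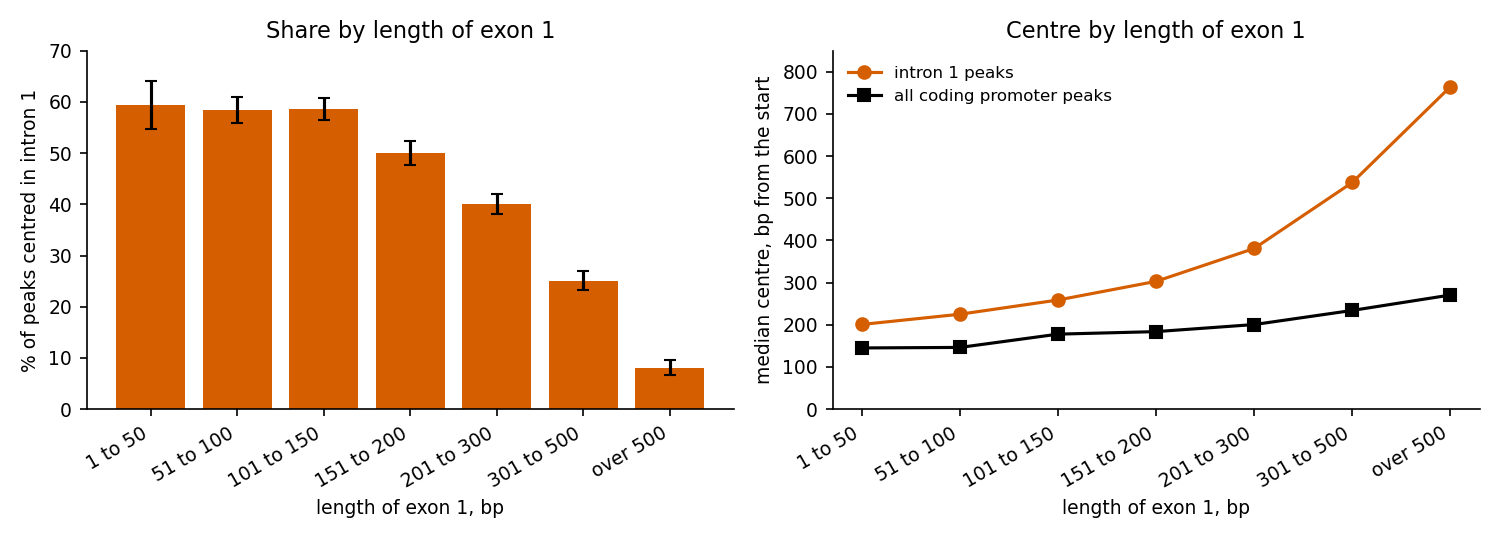
Left, the percentage of coding promoter peaks centred in intron 1 for 7 bins of exon 1 length (bars, with exact 95% intervals). Right, the median centre in bp from the start for intron 1 peaks (orange circles) and for all coding promoter peaks (black squares). The first moved from 200.75 to 764.5 bp and the second from 145 to 270.5 bp. The share fell from 59.5% to 8.06%.

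Intron 1 peaks stood earlier in the list than upstream peaks and were wider. Their median place was 6137 and their median width 767 bp (quartiles 535 and 1101 bp). Upstream peaks had a median place of 9716 and a median width of 532 bp. Peaks in exon 1 lay much nearer to those in intron 1, at a median place of 6786 and 811 bp for the 5′ UTR part and of 6078 and 760 bp for the coding part. Among the first 8115 peaks of the list stood 65.4% of intron 1 peaks, 64.0% of those in coding exon 1, 59.2% of those in the 5′ UTR and 39.0% of upstream ones. At genes without an intron, whose peaks were also centred downstream (median 303.75 bp), the median place was 8800.5 and the share 46.7%, against 57.7% of all coding promoter peaks. These values describe peaks of 1 list, which are not replicates, and no test was made.

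Along the list, cut into 10 equal bins, the class lost ground to upstream peaks. In bin 1, the first, 42.5% of coding promoter peaks were centred in intron 1 (577 of 1357, interval 39.9 to 45.2) and 15.6% upstream. The intron 1 share was highest in bin 3, at 48.3% (671 of 1389, interval 45.7 to 51.0). It then fell to 23.7% in bin 9 (interval 20.9 to 26.7) and stood at 29.1% in bin 10 (196 of 674), where 41.2% and 40.7% were upstream. The form of the intron 1 peaks changed as well. In bin 1 they were 1103 bp wide at the median and 92.5% spanned the start, whereas in bin 10 they were 265 bp wide and 7.65% did. A narrow peak spans the start less often for its width alone, and the part of width in this fall was not tested.

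**Figure D3:**
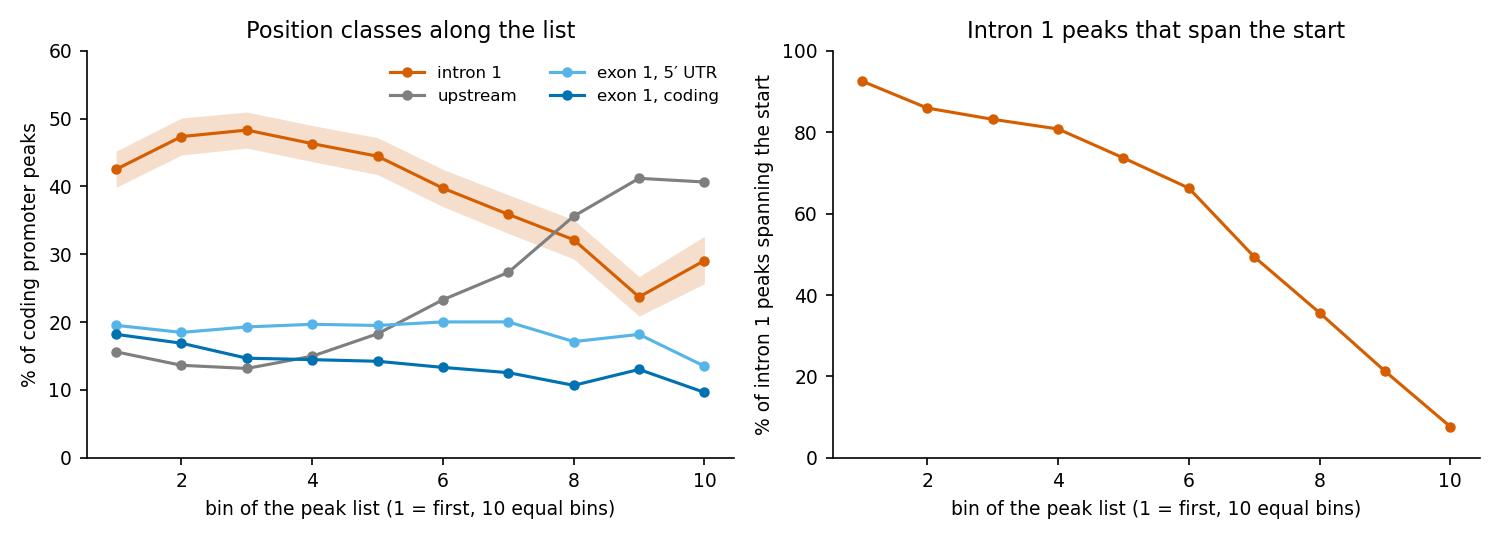
Left, the percentage of coding promoter peaks in each of 4 position classes for 10 equal bins of the list (x axis, 1 is the first), with the exact 95% interval of the intron 1 class shaded. Right, the percentage of intron 1 peaks that span the transcription start, which went from 92.5% in bin 1 to 7.65% in bin 10.

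A minority of the peaks lay wholly inside intron 1. These were 388 peaks (8.21%, interval 7.44 to 9.03), with a median width of 366.5 bp, a median place of 12822.5 and a median centre 676 bp from the start. The earliest in the list were at Smarcc2, a SWI/SNF remodelling subunit (1251 bp, place 1455), the homeobox gene Pknox1 (973 bp, place 1759), the corepressor gene Ctbp1 (781 bp, place 1855), the general transcription factor gene Gtf2a1 (1259 bp, place 2575) and the zinc finger gene Zfp407 (537 bp, place 2947). The Smarcc2 peak began 350 bp and ended 1601 bp downstream of the start, within an intron of 1914 bp. At the other extreme, 498 peaks (10.5%) spanned the whole of intron 1, and 514 reached exon 2. Ppan, a ribosome biogenesis factor, has a first intron of 89 bp, and its 1292 bp peak at place 20 extended from 434 bp upstream to 858 bp downstream of the start, so that 6.89% of its width was intron 1.

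Peaks in the longest introns stood later, while intron length and place had no common trend over the whole class. First introns ranged from 66 bp in the sirtuin gene Sirt7 to 707667 bp in Sgcz, a sarcoglycan gene, with a median of 4721 bp. Spearman's rho between intron length and place was 0.01 over the 4727 peaks. In the 83 longest introns the median place was 9025, against 6085 for the rest. Peaks in introns over 50000 bp (277) had a median place of 7768, a median width of 917 bp and a median centre of 431.5 bp, and 57.4% spanned the start. Those in introns of at most 500 bp (444) had a median place of 5994.5, a median width of 719.5 bp and a median centre of 245.5 bp, and 78.6% spanned the start. The next shortest were at Acadvl (67 bp), which encodes a fatty acid dehydrogenase of mitochondria, Fdx1l (70 bp), BC029214 (71 bp) and Rcor1 (73 bp), a CoREST corepressor gene. The next longest were at genes of neurons: the adhesion genes Ntm (551204 bp) and Lsamp (355383 bp), the orphan receptor gene Rora (542102 bp) and Fgf14 (540217 bp), a regulator of sodium channels. Of these 5 long introns, the peaks at Sgcz and Ntm stood at places 9975 and 9240, and those at Rora, Lsamp and Fgf14 at 14067, 15233 and 15400. None of the 5 spanned the start, while all 5 at the shortest introns did.

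The coding sequence began in exon 1 in 2607 of the 4727 transcripts (55.2%, interval 53.7 to 56.6), in exon 2 in 1661 (35.1%) and later in 459 (9.71%). The median place was 5766, 6447 and 7139 in that order, and the median width 768, 769 and 766 bp. Peak width therefore did not go with the exon of the start codon, while place was somewhat earlier where exon 1 carried it. Among the other coding promoter peaks under 2000 bp the share with a start codon in exon 1 was 70.4%, a figure that includes all peaks centred in coding exon 1 and all at genes without an intron, which carry it by definition.

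At many of these genes a further, narrower peak lay upstream of the start. Of the 4621 genes, 3493 had no other labelled coding peak and 1128 had at least 1, and 941 of the further peaks were upstream ones. For 879 pairs of an intron 1 and an upstream peak on the same transcript, the gap between the facing edges was 148 bp at the median (quartiles 102 and 249 bp). The intron 1 peak of these pairs was 797 bp wide and centred 458 bp downstream at the median, and the upstream peak was 366 bp wide and centred at -357.5 bp, that is, before the start. The intron 1 peak stood earlier in the list in 684 of the 879 pairs. The start lay in the gap between the peaks in 293 pairs, under the intron 1 peak in 462 and under the upstream peak in 124. Whether such pairs are 1 broad region divided by the peak caller was not tested, since the table gives no signal between them.

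Most genes had a single peak in intron 1 (4518), 100 had a pair and 3 had 3. For 59 of these 103 genes all lay on 1 transcript, and for 44 on different transcripts. The 3 genes were Bcar1, an adaptor of integrin signalling, the chromatin organiser Satb1 and the homeobox repressor Tgif1. At Satb1 each peak belonged to another start, at places 10955, 11867 and 12507 with widths of 518, 332 and 761 bp. Tgif1 likewise had 3 peaks at 3 starts, of 937, 1115 and 392 bp (places 8143, 10790 and 15897). Bcar1 had a 1308 bp peak at place 3242 at its outer start, and peaks of 337 and 225 bp (places 9917 and 15692) in the intron of an inner one.

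Few intron 1 peaks could be traced to a second start under the same peak among the RefSeq starts used here. These held 20417 promoters of protein-coding genes, beside 20949 such genes. Further starts of a gene can therefore be missed, and the shares below can be too low. Among 4606 peaks, without chromosome 18, whose starts were not used here, the start of another gene in the opposite, diverging direction lay under 2.56% (118, interval 2.13 to 3.06), compared with 11.3% of upstream peaks and 10.5% of those in the 5′ UTR of exon 1. The share was 5.26% in coding exon 1 and 1.81% past intron 1 (interval 0.589 to 4.16). Restricted to peaks that span their own start, the shares were 3.69% (interval 3.07 to 4.41) for intron 1, 20.6% (18.3 to 23.1) upstream and 11.7% (10.3 to 13.2) in the 5′ UTR. They were 6.54% (5.26 to 8.02) in coding exon 1 and 3.57% (1.17 to 8.14) past intron 1. A low share was thus not particular to intron 1 peaks. A later start of the same gene, over 50 bp downstream of the labelled one, lay under 5.02% of intron 1 peaks (231, interval 4.40 to 5.69), compared with 1.30% of upstream peaks, 3.69% in the 5′ UTR of exon 1 and 2.41% in its coding part. For peaks centred past intron 1 it was 5.42% (interval 3.06 to 8.77). A start of another gene on the opposite strand, downstream of the labelled start, lay under 2.54% (117), against 2.21% of upstream peaks. The earliest cases were the chaperonin gene Cct2 at place 26 and, among diverging pairs, Abce1 at place 54, which encodes a ribosome recycling factor. Position chose the classes, so these contrasts follow in part from the rule. The median upstream peak ran from -600 to -71 bp, and the median intron 1 peak from -41 to 732 bp. Restriction to peaks that span their own start does not make this reach equal.

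The first 20 genes of the class are given with what is known of them. Ncl, the gene of the nucleolar protein nucleolin, held place 1 with a 1095 bp peak on chromosome 1 (86358325 to 86359420), which began 35 bp and ended 1130 bp downstream of the start, so that 80.4% of it was intron 1. Trmt61a, a tRNA methyltransferase gene, followed at place 2 with 1209 bp, then the nucleolar helicase gene Ddx21 at place 4 with 1402 bp and Gar1, a protein of the complex that converts uridines of ribosomal RNA, at place 7 with 1548 bp. Ino80, the ATPase of a chromatin remodeller, stood at place 9, and its 766 bp peak began 247 bp downstream of the start. Ncl and Ino80 were the only ones of the 20 whose peak did not span the start. After them came Gpatch4, Nol12, the ribosomal protein gene Rpsa, the spindle checkpoint kinase gene Bub1, Ppan, the arginine methyltransferase gene Prmt1 and Tma16 (places 13 to 23). Cct2, Crebrf, the circadian repressor gene Nr1d2, Iqgap3, Wdr74, Heatr1, Abce1 and Rcc1 completed the 20 (places 26 to 55), with widths from 572 bp at Iqgap3 to 1605 bp at Crebrf.

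Genes of the complex to which Sap130 belongs were among the class. Of 32 genes of the Sin3-HDAC complex and its recruiting factors, 26 had a coding promoter peak and 13 (40.6%, interval 23.7 to 59.4) had one under 2000 bp centred in intron 1. The background is 4617 of 20949 protein-coding genes (22.0%), or 4617 of the 10273 with a coding promoter peak (44.9%). The 13 of 26 (50%, interval 29.9 to 70.1) lie near the latter figure, so a share near the background is no result about these genes. Their median place was 2556 and their median width 1212 bp, against 6007 and 778 bp over all 4617 genes. Early and wide peaks were not particular to this list. The medians in the class were 2317 and 1343 bp for chromatin regulators, and 3008 and 1118 bp for splicing genes.

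The Sap130 gene carried 3 peaks around its own start on chromosome 18, and 2 of them were centred in intron 1. The first (31634328 to 31634874, 546 bp, place 1270) spanned the start and was centred 219 bp downstream of it, with an exon 1 of 107 bp. The second (31635068 to 31635593, 525 bp, place 4809) was centred 948.5 bp downstream, and a 444 bp peak lay upstream at a gap of 120 bp from the first. Sin3a likewise had intron 1 peaks at 2 starts, one of 1212 bp at place 850 and the 1541 bp peak at place 3468 described with the sequences. The peak of the second scaffold gene, Sin3b, was 801 bp wide (place 3315). Among the catalytic subunits, Hdac1 had a 669 bp peak at place 8986, and a 305 bp peak lay upstream of it at a gap of 78 bp. The peak of Hdac2 (2050 bp) was also centred in intron 1, but it and those of Sap30 (2125 bp) and the Max partner Mnt (3425 bp) exceeded 2000 bp and are left out by the rule.

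The histone chaperone genes Rbbp4 and Rbbp7 carried peaks of 1309 bp (place 2556) and 567 bp (place 6957), the latter 929.5 bp from the start. Arid4a (1339 bp, place 341) and Arid4b (1609 bp, place 1931), a pair of related subunits, were centred 655.5 and 792.5 bp downstream. Brms1l (714 bp, place 3351) and Ing2 (1967 bp, place 3358), which reads methylated histone H3, lay at 348 and 979.5 bp. The demethylase gene Kdm5b had a 1658 bp peak at place 1567. Of the repressors that bring Sin3 to E-boxes, Mxd1 had 798 bp at place 739 and Mxi1 had 1639 bp at place 3996. Scaffolds, a deacetylase, chaperones and recruiting factors were thus all among the 13. Ncor1 (2753 bp, place 470), Ing1 (2049 bp, place 611) and Sap30l (1786 bp, place 820) had promoter peaks centred elsewhere (upstream, in coding exon 1 and in its 5′ UTR). Early and wide peaks at genes of this list were thus not limited to the class.

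Genes of basic cell functions had an intron 1 peak in 32.4% to 55.3% of the listed genes, beside 22.0% of all protein-coding genes. Any coding promoter peak was present in 82.4% (proteasome) to 94.1% (mitosis) of them. Among genes with such a peak the shares ran from 34.4% (mitosis) to 66.7% (respiratory chain), beside 44.9% of all such genes. The intervals of these lists include 44.9% in every case but the respiratory chain. They cover counting error only and are not a test, so no share is read as a result about its genes. The nuclear genes of the respiratory chain had 42 of 76 (55.3%, interval 43.4 to 66.7), which is 66.7% of the 63 with any coding promoter peak (interval 53.7 to 78.0). These included Atp5g1 of the ATP synthase (633 bp, place 157), Cox5a of cytochrome oxidase (1298 bp, place 609) and Ndufv1 of complex I (678 bp, place 615). Their peaks were narrow, with a median of 597 bp, and stood at a median place of 6948.5, so that among the first 8115 peaks the share was 36.8%. Ribosome biogenesis genes had 24 of 50 (48.0%) and stood early, at a median place of 224.5 and a median centre of 226 bp. Chromatin regulators had 39 of 75 (52.0%, interval 40.2 to 63.7), with a median width of 1343 bp and a median centre of 575 bp, led by Ino80, Gatad2a of the NuRD complex (1524 bp, place 149) and Smarcc1 (1515 bp, place 203). Differences between the lists were not tested.

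Ribosomal protein genes joined short exons to short introns. Of 79 genes, 68 had a coding promoter peak, and 36 (52.9% of the 68) had it centred in intron 1 (45.6% of all 79, and 25.3% where more of the peak had to lie inside intron 1 than outside it), with a median exon 1 of 68 bp, a median intron 1 of 628 bp and a median width of 1216 bp. In 15 others the centre lay past intron 1, more than in any other of the 23 lists. Of the 36, Rpsa (847 bp, place 16), Rpl14 and Rpl12 (1466 bp, place 323) were earliest, and 21 had the start codon in exon 1. The mitochondrial ribosome had 36 of 78 (46.2%), among them Mrpl23 (615 bp, place 130), Mrps6 and Mrpl12, with a median exon 1 of 104 bp and a median width of 650.5 bp.

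Among the remaining lists of basic functions, cell cycle and replication genes had 26 of 58 (44.8%), including cyclin B1 (Ccnb1, 1402 bp, place 126), Cdk1 (1169 bp, place 150) and cyclin A2 (Ccna2, 1260 bp, place 376). Mitosis genes had the lowest share of this group, 11 of 34 (32.4%, interval 17.4 to 50.5), with Bub1, the kinesin gene Cenpe (1120 bp, place 107) and Prc1. In that list 9 peaks were centred in the 5′ UTR of exon 1 and 8 upstream. Splicing genes had 29 of 61 (47.5%), led by Srsf10, U2af2 and Srsf7 (places 201, 211 and 213), and 5 more with an intron 1 peak of 2 kb or wider. Translation factors had 17 of 42 (40.5%), among them the elongation factor genes Eef1a1 (1549 bp, place 199) and Eef2 (1657 bp, place 245). The proteasome had 15 of 34 with Psmd14, Psma3 and Psmd7 first, tRNA synthetases 16 of 37 with Vars, Eprs and Farsa, and cilia genes 22 of 48 with Mks1, Ift81 and Ift43.

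Genes that mark neural progenitors and regions of the brain had shares close to the 22.0% of all protein-coding genes, and long first exons. Radial glia markers had 8 of 33 (24.2%, interval 11.1 to 42.3), or 29.6% of the 27 with a coding promoter peak (interval 13.8 to 50.2, which includes the 44.9% of all such genes). Among the first 8115 peaks the share was 6.06%, where that of all protein-coding genes was 14.7%. The 3 earliest were Notch2 (1063 bp, place 3306), Nde1 (878 bp, place 7951) and the homeobox gene Lhx2 (1734 bp, place 8149). Neurogenic and regional transcription factors had 11 of 50 (22.0%, interval 11.5 to 36.0), or 28.9% of 38 (interval 15.4 to 45.9), and 2.0% among the first 8115 peaks, with Nfix (1125 bp, place 7163), Emx1 (1153 bp, place 9464) and Satb1 first. Their peaks stood late, at a median place of 13852, and were 429 bp wide at the median. The median exon 1 over all genes with a coding promoter peak was 430 bp in the radial glia list and 424 bp in the transcription factor list, compared with 211 bp over all such genes and 137 bp in the respiratory chain. The part of exon 1 length in these shares was not tested.

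Neuronal and disease lists had shares from 35.6% to 39.0%, within the range of the basic functions. Neuronal markers had 15 of 40 (37.5%, interval 22.7 to 54.2), led by the microtubule protein gene Mapt (1825 bp, place 2019), Rbfox2 (1405 bp, place 2152) and the synaptic vesicle gene Vamp2 (1069 bp, place 2594), with a median first intron of 23540 bp. Axon guidance genes had 19 of 50 (38.0%, and 22.0% among the first 8115 peaks), with Plxna1 (1546 bp, place 894), Ephb1 and Sema5b earliest. Autism-associated genes had 23 of 59 (39.0%, interval 26.5 to 52.6, and 25.4% among the first 8115 peaks), with the β-catenin gene Ctnnb1 (1960 bp, place 866, exon 1 of 39 bp), Kmt2c (1378 bp, place 1126) and Ankrd11 (987 bp, place 1136). Congenital heart disease genes had 16 of 45 (35.6%, interval 21.9 to 51.2), with Map2k1 of the RAS-MAPK cascade (1088 bp, place 626), Smad2 (1888 bp, place 643) and Ankrd11. As shares of genes with a coding promoter peak these were 51.7%, 43.2%, 48.9% and 57.1%, around the 44.9% of all such genes. Among the first 8115 peaks the share of all protein-coding genes was 14.7%.

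Markers of blood, vessel and immune cells and genes of adult non-neural organs had few promoter peaks in any position, with 0 for the erythroid, microglial and adult lists and 2 for the endothelial and mural list. The class held 0 of 17 erythroid markers, a count that leaves room for a share of at most 17.6%. It held 0 of 20 markers of microglia and other immune cells (up to 16.8%) and 0 of 34 genes typical of adult non-neural organs (up to 10.3%). Of 21 endothelial and mural markers 1 had such a peak, the 270 bp peak of Egfl7 at place 10956.

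The promoters of these genes were rich in CpG, as were those of the other classes. RefSeq promoters of GRCm38.p6, running from 250 bases before the start to 50 after it, were matched by gene to 3826 of the 4727 peaks (80.9%), 2731 of them on the same start base, and comprised 3780 distinct promoters. The ratio of observed to expected CpG exceeded 0.6 in 82.1% of them. It did so in 87.3% of promoters with an upstream peak, 81.2% with a peak in the 5′ UTR of exon 1, 49.2% of all 20417 protein-coding promoters and 20.2% of 9781 promoters of genes with no labelled peak. High CpG content thus went with having a Sap130 promoter peak in any of these positions. Within the class it was more frequent among the first 8115 peaks of the list (88.7%) than in the rest (69.2%).

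Short letter runs known as binding motifs were then counted in the same windows on both strands. ETS (CCGGAAGT) was found in 8.20% of intron 1 promoters and in 5.32% of all protein-coding promoters, NRF1 (GCATGCGC) in 7.01% and 3.63%, YY1 (AAGATGGC) in 5.77% and 3.11%, and E2F (GGCGGGAA) in 4.37% and 2.95%. In promoters of genes with no labelled peak the 4 runs reached 2.28%, 1.35%, 1.75% and 1.62%. The GC box (GGGCGG), which can overlap the E2F run, stood in 74.1% of intron 1 promoters and 47.7% of all, NFY (CCAATCA) in 12.1% and 9.27%, the E-box CACGTG in 10.5% and 8.05%, and CRE (TGACGTCA) in 3.89% and 2.31%. The TATA run (TATAAA on the gene's strand, 45 to 15 bases before the start) was rarer, at 0.688% against 2.72% of all and 4.72% of genes with no labelled peak. Upstream peaks had 8.03% ETS, 5.71% NRF1, 4.64% YY1 and 1.02% TATA, and the counting intervals of the 2 classes overlapped for all 4. Peaks in the 5′ UTR of exon 1 had 11.1% ETS (interval 9.69 to 12.7), against an interval of 7.35 to 9.12 for intron 1. CpG content differs between these sets as well, and its part in the motif shares was not tested.

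Peaks whose promoter held the ETS run stood earlier, at a median place of 4690 (315 peaks) against 6218 without it. The corresponding values were 5154.5 and 6181.5 for NRF1, 5331.5 and 6161.5 for YY1, 4843 and 6213.5 for the E-box, and 5770 and 7140 for the GC box. They were nearer to each other for E2F (5988 and 6103), NFY (5903 and 6107) and CRE (6086 and 6101.5), and in the other order for TATA (6814.5 for 26 peaks and 6100.5). Where the YY1 run was present, the start codon lay in exon 1 in 68.6% of transcripts, against 54.4% without it. The run contains ATG and the window reaches past the start, so a match there can be the start codon itself. Of 218 intron 1 promoters with the run, 169 held it on the gene's strand. The part of such matches in this difference was not tested. Examples from the front of the list show where the runs lay, in capitals, within 130 bases before to 20 after the start, 5′ to 3′ on the gene's strand. They are ETS in Trmt61a and Gar1, NRF1 in Pdia5, a protein disulfide isomerase gene, and Casc5, a kinetochore gene, and YY1 in Zfp566, a zinc finger gene.
Trmt61a: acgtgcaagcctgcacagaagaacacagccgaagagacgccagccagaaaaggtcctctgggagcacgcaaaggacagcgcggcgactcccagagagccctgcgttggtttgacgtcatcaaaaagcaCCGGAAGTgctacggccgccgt
Gar1: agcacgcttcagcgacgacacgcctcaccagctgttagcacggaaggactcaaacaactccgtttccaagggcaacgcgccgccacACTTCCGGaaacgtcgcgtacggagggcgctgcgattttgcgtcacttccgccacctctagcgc
Pdia5: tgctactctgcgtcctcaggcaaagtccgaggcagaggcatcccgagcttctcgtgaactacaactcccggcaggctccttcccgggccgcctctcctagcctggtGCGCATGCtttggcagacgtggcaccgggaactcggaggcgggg
Casc5: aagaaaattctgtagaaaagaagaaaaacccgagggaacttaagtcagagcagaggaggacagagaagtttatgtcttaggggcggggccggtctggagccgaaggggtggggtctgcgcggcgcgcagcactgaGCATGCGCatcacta
Zfp566: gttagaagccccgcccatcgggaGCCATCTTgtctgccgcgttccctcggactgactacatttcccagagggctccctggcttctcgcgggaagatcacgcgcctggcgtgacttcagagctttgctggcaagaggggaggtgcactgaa
These stretches, from RefSeq on GRCm38.p6, are chr12:111677975-111678124 (plus strand), chr3:129831377-129831526 (minus), chr16:35490854-35491003 (minus), chr2:119046989-119047138 (plus) and chr7:30090491-30090640 (minus). All 150 bases of each stretch shown lay under the gene's peak, which does not hold for the class. For Rnf44, a further gene with the YY1 run (place 540) that is not shown, 0 of the 150 bases did. Of all intron 1 peaks, 30.6% began downstream of the start and so left the bases before it uncovered. In Gar1, Pdia5 and Zfp566 the capitals are the reverse complement of the run as spelled above. The ETS run of Trmt61a begins 2 bases before the start and crosses it, and the NRF1 run of Casc5 begins at base 6 of exon 1. The peaks of Pdia5 (747 bp, place 112), Casc5 (1034 bp, place 120) and Zfp566 (1460 bp, place 431) were centred 230.5, 251 and 231 bp downstream of the start. A match of letters is a description and not a measured binding site.

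**Figure D4:**
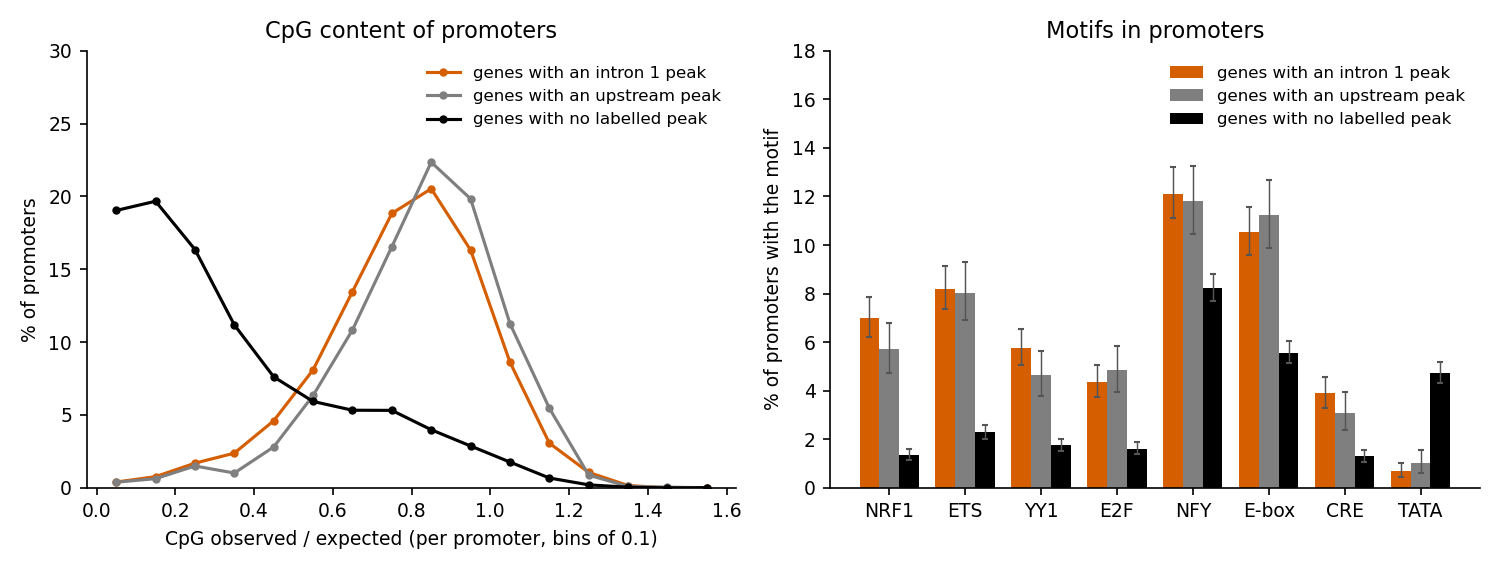
Left, the distribution of the CpG observed to expected ratio over promoters of genes with an intron 1 peak (orange), with an upstream peak (grey) and with no labelled peak (black), as percentages in bins of 0.1. Right, the percentage of promoters that hold each motif, with exact 95% intervals; ETS stood in 8.20% of intron 1 promoters and 2.28% of those with no labelled peak, and TATA in 0.688% and 4.72%.

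By chromosome the class varied little, from 35.1% of coding promoter peaks on chromosome 19 (interval 30.5 to 39.8) to 44.5% on chromosome 6 (interval 40.3 to 48.8). On the X chromosome it was 43.8% (172 of 393). The X peaks stood later, with a median place of 10257.5 against 5947 on the other chromosomes, and were narrower, with medians of 660 and 774 bp. The 2 strands were equally represented, with 2356 peaks (49.8%) at genes on the plus strand.

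The limits of the rule cut through a continuous range. Near the exon 1 boundary, 195 coding promoter peaks were centred within the first 10 bp of intron 1 and 193 within the last 10 bp of exon 1. The nearest centre to a start was at 29.5 bp, in Ino80b, a subunit of the INO80 remodeller, followed by Bre (31 bp), Gpr153 (32 bp), Gtpbp5 (34 bp) and Nme6 (34.5 bp). The farthest were at Kat2b (1000.5 bp), an acetyltransferase gene, Pcbp4 (1000 bp), Mllt10 and Rabgap1 (999 bp each) and Slc25a46 (998.5 bp), at the edge of the window within which peaks carried a label. The widest peak kept was at the neural proteoglycan gene Ncan (1999 bp), and among the next were those of Arhgdia, Cnn3 and Tpbg (1989 bp each). Just beyond the limit were Arhgef40 (2002 bp), Kpna2 (2007 bp), Rufy3 and Farp1 (2011 bp each) and Cdk17 (2013 bp), among 178 intron 1 peaks of 2000 bp or more that were left out.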

How the data were processed

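Sap130 ChIP and input DNA of E13.5 mouse brain were sequenced as 1 library each. Bowtie 1.1.2, MACS2 2.1.0.20140616 and the build GRCm38 (mm10) are named, per the submitters' processing notes. For settings, thresholds and the rule that joins genes to peaks, the sources used here give nothing. What the authors deposited is a table of peak bounds in bp with a gene label and transcript model, which holds no count, height or q-value. Depth is unknown.

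Each peak centre was placed on its transcript model with Python 3.11.15, numpy 2.4.6, pandas 2.3.3 and scipy 1.17.1, and figures were drawn with matplotlib 3.10.9. Ends of the models were raised by 1 base, a choice made after seeing the data, because splice donors and start codons (29 of 29 ATG) then matched the RefSeq letters. Peak coordinates are as deposited. By accession 4691 peaks and by symbol 36 matched RefSeq (GRCm38.p6). Symbols of 10 peaks, stored as dates, were restored by accession. The background is the 20949 protein-coding genes with a curated transcript; 1073 of 1074 listed entries were found. Intervals are exact (Clopper-Pearson, 95%), and for a share of 0 their upper bound is given. For a gene with several peaks in intron 1 the earliest was used. Placement was run on simulated models written with the same convention for model ends, which checks the code only and not that convention.

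The peaks and gene lists were chosen with earlier results of these data known, and some genes are in several lists. Named were the first 20 genes, the 3 earliest of each list (all for Sin3-HDAC) with up to 3 others, and the extremes of position, width and intron length. Genes named for a second start, a peak inside or across the intron, or their sequence were chosen after their values were seen. A gene that this rule would name is not reported here.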

Additional observations from a re-analysis of the deposited data

How the results depend on the processing

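Requiring the whole peak inside intron 1 changed the class: 388 peaks (3.32% of coding promoter peaks), median centre 676 bp from the start and 454 bp from the exon 1 end, 0% spanning the start, median width 366.5 bp, median place 12822.5 against 6810.5 for the other peaks, and a start codon in exon 1 in 52.1%. Requiring more of the peak inside intron 1 than outside it left 4353 peaks, 37.2% of coding promoter peaks and 20.3% of genes. The first 8115 peaks of the list gave 3093 peaks (45.8%), 83.2% spanning the start, a median width of 916 bp, a start codon in exon 1 in 58.1%, 14.7% of genes, and 12 genes with several peaks. There the median place was 4023 for intron 1 peaks and 4117 for the others. Each of these settings changes which peaks enter, and no other cause was tested. In those 8115, a CpG ratio over 0.6 was found in 88.7%, and with the same start base in both sources in 83.7%. Without the width limit 22.9% of genes had such a peak. With 1 peak per gene the share was 43.4%, 74.3% spanned the start and the others stood at 6406. Of 100 values of lists and motifs under another setting, 88 stayed within the interval of the reported value. The 12 others were, with more of the peak inside intron 1 than outside, ribosome biogenesis (32.0%), ribosomal proteins (25.3%) and the mitochondrial ribosome (30.8%), and, in the first 8115 peaks, the respiratory chain (36.8%), radial glia (6.06%), neurogenic factors (2.0%), axon guidance (22.0%), autism (25.4%), endothelial markers (0%), NRF1 (8.06%), ETS (9.96%) and YY1 (6.67%). Without the width limit splicing genes reached 55.7%. The count of 88 is a description, since the settings left little room for change. Model ends as deposited made 0 list shares lower and 0 higher. Each other setting could move list shares in 1 direction only, as in the first 8115 peaks, where 18 were lower and 0 higher. Autosomes alone, and model ends as deposited (4737 peaks, a setting chosen after seeing the data), moved none of the values computed under them. Stricter q-values could not be applied, as the table used here gives none. No paired analysis was possible because the ChIP and the input are single libraries.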
